A study of Mus musculus with 6 samples.

Results

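Expression of 10 genes of extracellular matrix breakdown, 8 matrix metalloproteinases and 2 of their inhibitors, was followed through pericardial adhesion in mice, in adhesion tissues and in heart tissues. They were taken by name from the 23420 genes of each tissue's table, and all 10 were found once in both. They were described as stromal enzymes (Mmp2, Mmp3, Mmp13, Mmp14 and Mmp19), leukocyte enzymes (Mmp8, Mmp9 and Mmp12) and inhibitors (Timp1 and Timp2). The adhesion tissues came from days 1, 3 and 7 after talc injection and the heart tissues from days 0, 3 and 7, with 1 RNA sequencing library for each of the 6 tissue and day combinations. All mice were C57BL/6 males of 8 weeks, and adhesion was induced with 300 µL of talc in saline (2.5 mg/g) placed in the pericardial cavity. The labels do not say whether the day 0 heart had received talc, nor how many animals gave each library, and they call the heart samples whole heart where the methods name myocardium. The study's material also names day 1 for the first heart library, and a source label gives day 0 for the first adhesion library, whose title gives day 1. Adhesion is the scar tissue that joins the heart surface to the pericardium, and the study asked how tissue remodeling accompanies its vessel growth.

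Matrix metalloproteinases are zinc-dependent endopeptidases that are made as inactive proenzymes and, once activated, cut collagens, gelatin, elastin and other matrix proteins. Tissue inhibitors of metalloproteinases (Timps) bind the active site, and Timp2 also takes part, with Mmp14, in the activation of proMmp2 at the cell surface. Fibroblasts and other stromal cells are known sources of Mmp2 and Mmp14, neutrophil granules carry Mmp8 and Mmp9, and macrophages are known for Mmp12. Transcript levels do not report secretion, activation or activity.

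Because each group was a single library, no difference had a replicate check and no p-value was given. Values are reads recovered from the deposited scaled table, given as CPM, which scales them to the library's reads in genes. They are given per kilobase of exon (RPKM) where genes are set against each other. Ratios within a tissue were taken on the deposited scale, so they differ from ratios of the CPM values beside them. In CPM the heart log2 ratios to day 0 were 0.17 higher on day 3 and 0.12 higher on day 7. A ratio carries an exact 95% interval (conditional binomial, from the reads of both libraries), which covers counting error only, and a gene was called when its ratio with a pseudocount of 1 passed 3-fold. The libraries held between 1615922 and 1844565 reads in genes, and 3 reads, the floor used here, corresponded to between 1.63 and 1.86 CPM. Checked against marker genes, the heart tissues carried 10 cardiomyocyte genes at a summed level between 118007 and 146416 CPM. The adhesion tissues carried the same genes at 28092 CPM on day 1, 515 CPM on day 3 and 12349 CPM on day 7. The adhesion libraries of days 1 and 7 thus also held muscle RNA, and 9 skeletal muscle genes summed to 8097, 14.2 and 2655 CPM on days 1, 3 and 7. In adhesion tissue on day 1 the cardiomyocyte sum was mostly Ttn, a gene that skeletal muscle also makes, and the single genes stood at 3.42% (Mybpc3) to 79.9% (Nppa) of their day 0 heart level. The 6 lung epithelium genes summed to 255, 3.71 and 646 CPM in adhesion tissues on those days, and to 0.584, 2.21 and 224 CPM in heart tissues on days 0, 3 and 7. In adhesion tissue on day 1, Scgb1a1 gave 445 of their 456 reads. The part of lung RNA in the level of any member was not tested. In bulk tissue, fewer cells of a type and less RNA per cell cannot be told apart.

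Of the 10 genes, Mmp13, Mmp12, Mmp3 and Mmp8 lie within 296 kb of each other on chromosome 9, all on the plus strand (mm10; Mmp13 chr9:7272514-7283333, Mmp12 chr9:7347374-7360461, Mmp3 chr9:7445822-7455974 and Mmp8 chr9:7558429-7568486). The others lie on separate chromosomes: Mmp2 at chr8:92827328-92853420, Mmp9 at chr2:164948251-164955846, Mmp14 at chr14:54431604-54441258, Mmp19 at chr10:128790910-128800824, Timp1 at chrX:20870166-20874737 and, on the minus strand, Timp2 at chr11:118301061-118355411. The 120 bases before the start of each of the 4 genes on chromosome 9 are shown because genes this close had different time courses. The windows (RefSeq, GRCm38.p6, plus strand) are chr9:7272394-7272513 for Mmp13, chr9:7347254-7347373 for Mmp12, chr9:7445702-7445821 for Mmp3 and chr9:7558309-7558428 for Mmp8. Capitals mark TGANTCA, the letters that Fos and Jun dimers are known to bind, and TATAAA on the strand of the gene.
Mmp13: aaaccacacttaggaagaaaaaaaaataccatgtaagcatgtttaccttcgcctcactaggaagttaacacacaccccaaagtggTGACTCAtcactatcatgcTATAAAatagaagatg
Mmp12: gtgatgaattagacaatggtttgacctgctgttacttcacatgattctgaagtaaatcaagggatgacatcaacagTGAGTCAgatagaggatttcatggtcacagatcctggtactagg
Mmp3: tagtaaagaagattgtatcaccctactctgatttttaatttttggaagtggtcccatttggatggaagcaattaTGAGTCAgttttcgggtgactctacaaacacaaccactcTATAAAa
Mmp8: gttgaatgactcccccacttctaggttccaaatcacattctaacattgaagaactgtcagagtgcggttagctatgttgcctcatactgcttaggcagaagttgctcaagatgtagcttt
TGANTCA stood once in the windows of Mmp13, Mmp12 and Mmp3, with its first base 35, 44 and 46 bases before the start, and not in that of Mmp8.

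TGANTCA reads the same on both strands apart from its middle base, so 1 search covered both, and it did not overlap TATAAA in any window. Of 32851 RefSeq promoters of 250 bases, 6.75% held it, and 0.95% held it with a first base 30 to 60 bases before the start. That range was not planned and encloses the positions found for Mmp13, Mmp12 and Mmp3, so the 0.95% is a description only. TATAAA, which was looked for after the sequences had been seen, was in the windows of Mmp13 and Mmp3 and in 7.59% of all promoters. Neither set of letters was in the 250 bases before the starts of Mmp8, Mmp14, Timp1 or Timp2, or before a second Mmp12 start 2977 bases upstream. Mmp2, Mmp9 and Mmp19 were not matched.

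Among the stromal enzymes, Mmp2 and Mmp14 had their highest levels in adhesion tissue on day 7. Mmp2, which cuts gelatin and type IV collagen, was at 50.8, 126 and 420 CPM in adhesion tissues on days 1, 3 and 7. In heart tissues Mmp2 was at 88.7, 133 and 193 CPM on days 0, 3 and 7. Per length it was the second of the members in the day 0 heart, after Timp2. Relative to day 1, Mmp2 in adhesion tissues was 2.50-fold higher on day 3 (1.95 to 3.24) and 8.46-fold higher on day 7 (6.80 to 10.6). Relative to day 0, Mmp2 in heart tissues was 1.32-fold higher on day 3 (1.08 to 1.63) and 2.0-fold higher on day 7 (1.65 to 2.44).

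Mmp14, a membrane-anchored collagenase that activates proMmp2, was at 116, 308 and 529 CPM in adhesion tissues on days 1, 3 and 7. The heart tissues held it at 12.8, 100 and 105 CPM on days 0, 3 and 7, so that both later heart levels were close to each other and well above day 0. In adhesion tissues Mmp14 was 2.68-fold higher on day 3 than on day 1 (2.27 to 3.17) and 4.68-fold higher on day 7 than on day 1 (4.03 to 5.47). In heart tissues it was 6.90-fold higher on day 3 than on day 0 (4.42 to 11.3) and 7.48-fold higher on day 7 than on day 0 (4.80 to 12.2). The heart ratio of day 7 over day 3, 1.09 (0.881 to 1.34), did not leave the counting error.

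Mmp19, an enzyme that cuts basement membrane proteins and is also found in myeloid cells, differed in course from both. It was already at 335 CPM in adhesion tissue on day 1, and at 319 and 474 CPM on days 3 and 7. On the heart side it was at 3.50 CPM on day 0, from 6 reads, and at 40.9 and 41.2 CPM on days 3 and 7. The level in adhesion tissue on day 3 was 1.04-fold lower than on day 1, with an interval that held 1 (0.926 to 1.18), and that on day 7 was 1.45-fold higher than on day 1 (1.30 to 1.61). The heart ratios to day 0 were 10.3 on day 3 (4.53 to 29.1) and 10.8 on day 7 (4.75 to 30.5). Mmp19 shares 789 of its 3453 exon bases with Tmem198b on the opposite strand, and the strand setting of the counting was not given in the sources used here. Tmem198b had 17, 31 and 32 reads in adhesion tissues and 11, 11 and 17 reads in heart tissues, so that in the day 0 heart its reads outnumbered the 6 reads of Mmp19.

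Mmp3 (stromelysin 1), which cuts proteoglycans and activates other proenzymes, was the only member with a lower level in adhesion than in heart tissue past 3-fold. It had 46, 14 and 58 reads in adhesion tissues on days 1, 3 and 7 (25.7, 8.66 and 31.4 CPM). In heart tissues it had 8, 71 and 33 reads on days 0, 3 and 7 (4.67, 39.2 and 18.1 CPM). Adhesion tissue was thus lowest on day 3, the day on which heart tissue was highest. The adhesion level on day 3 was 2.94-fold lower than on day 1 (1.59 to 5.80), and that on day 7 was 1.25-fold higher than on day 1 (0.836 to 1.89). The heart level was 7.44-fold higher on day 3 (3.58 to 17.9) and 3.57-fold higher on day 7 (1.62 to 8.96) than on day 0.

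Mmp13 (collagenase 3), which cuts fibrillar collagen, had the fewest reads per length of the members over the 6 libraries together. It had 5, 45 and 18 reads in adhesion tissues on days 1, 3 and 7, and 0, 2 and 3 reads in heart tissues on days 0, 3 and 7. In heart tissues all 3 values were at or under the floor, so no fold is given, although the rule with a pseudocount counts Mmp13 as over 3-fold at both later days. In adhesion tissues it was 10-fold higher on day 3 than on day 1 (4.0 to 32.4) and 3.58-fold higher on day 7 than on day 1 (1.28 to 12.3). Its highest level, 27.9 CPM on day 3, was followed by a 2.81-fold lower level on day 7 (1.59 to 5.15). Mmp13, Mmp12 and Mmp3, whose windows hold TGANTCA, did not share a course in adhesion tissues: Mmp13 was highest on day 3, Mmp12 was highest on day 7 and Mmp3 was lowest on day 3.

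**Figure D1:**
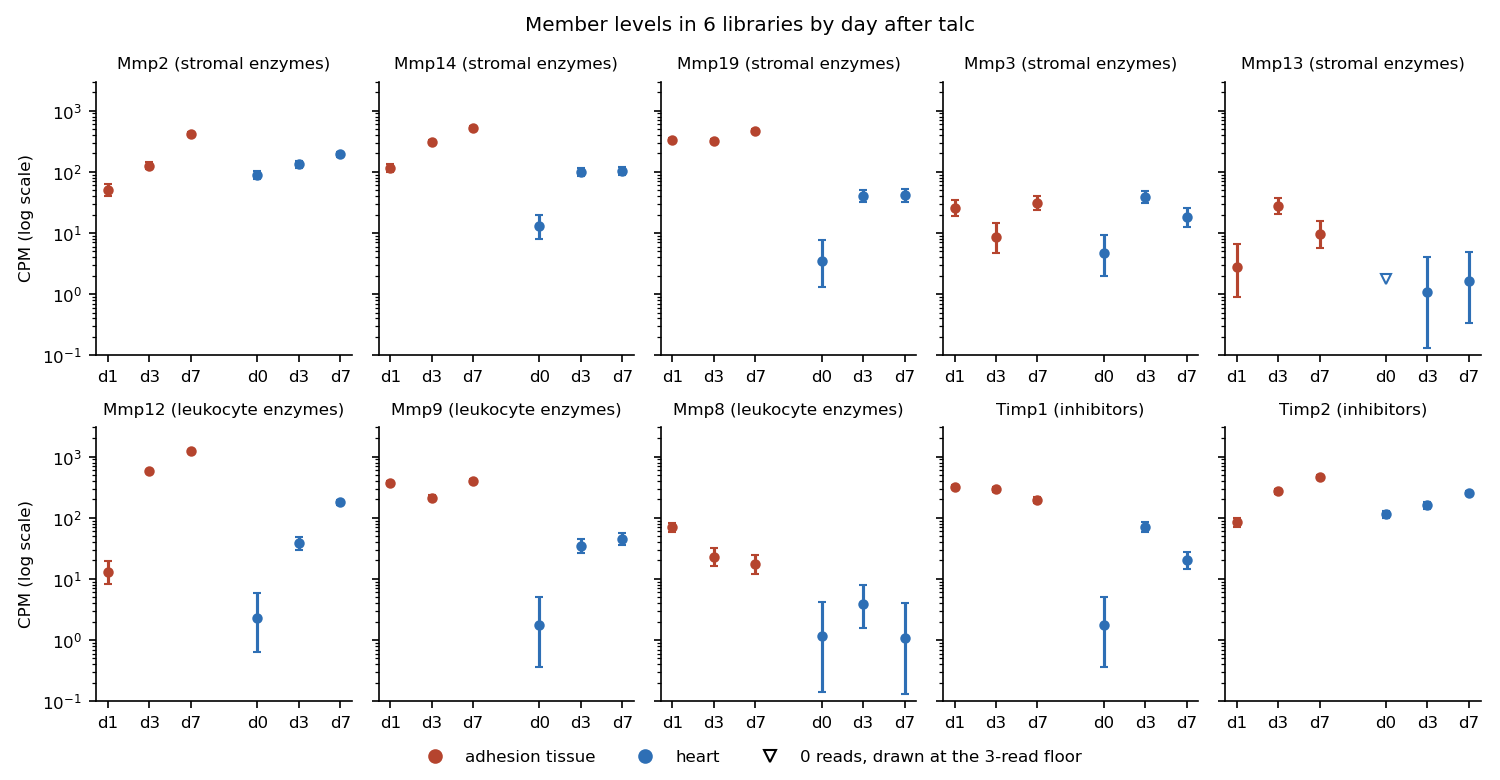
Level of each member in CPM on a log axis in the adhesion libraries (red, days 1, 3 and 7) and the heart libraries (blue, days 0, 3 and 7), 1 point per library with its exact 95% counting interval. Mmp12 spans 12.8 to 1245 CPM in adhesion tissues, while Timp2 spans 84.4 to 470 CPM. An open triangle marks 0 reads, at the level of 3 reads.

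The leukocyte enzymes took 3 different courses. Mmp12 (macrophage elastase) had 23, 926 and 2297 reads in adhesion tissues on days 1, 3 and 7. The heart tissues gave 4, 70 and 323 reads on days 0, 3 and 7. Per length, Mmp12 was the lowest of the leukocyte enzymes in adhesion tissue on day 1, at 3.56 RPKM, and the highest of all 10 members on day 7, at 345 RPKM. Its ratio of day 3 over day 1, 44.9 (29.8 to 71.3), ranked first among the 10431 genes with at least 30 reads in the libraries compared. For day 7 over day 1 its ratio of 99.3 (66.0 to 157) ranked 15 among 10670 genes. In heart tissues Mmp12 was 14.7-fold higher on day 3 (5.48 to 55.3) and 70.0-fold higher on day 7 (27.1 to 258) than on day 0. The lung epithelium genes, at 3.71 CPM in adhesion tissue on day 3, were at 646 CPM in adhesion tissue and 224 CPM in heart tissue on day 7, the day of its highest level in each tissue, and their part in these levels was not tested. The heart ratio of day 7 over day 3, 4.77 (3.67 to 6.27), ranked 13 among 10162 genes.

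Mmp9 (gelatinase B) had 669, 345 and 735 reads in adhesion tissues on days 1, 3 and 7 (374, 214 and 398 CPM). On the heart side it had 3, 63 and 81 reads on days 0, 3 and 7 (1.75, 34.8 and 44.6 CPM). The adhesion libraries were all above the heart libraries. In adhesion tissues its level was 1.74-fold lower on day 3 than on day 1 (1.52 to 1.98), and the ratio of day 7 over day 1 was 1.09 (0.982 to 1.21). Its heart level was 17.6-fold higher on day 3 (5.75 to 87.6) and 23.4-fold higher on day 7 (7.73 to 116) than on day 0, against a day 0 value of only 3 reads.

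Mmp8 (neutrophil collagenase) had 124, 37 and 32 reads in adhesion tissues on days 1, 3 and 7 (69.3, 22.9 and 17.3 CPM). In heart tissues it had 2, 7 and 2 reads on days 0, 3 and 7, so that only day 3 was above the floor. Mmp8 was the only member called lower in adhesion tissues relative to day 1. It was 3.90-fold lower on day 7 (2.63 to 5.95) and 3.0-fold lower on day 3 (2.06 to 4.46), where the pseudocount kept it inside the threshold. Mmp8 and Mmp9, both neutrophil granule enzymes, differed on day 7, where Mmp8 was 3.90-fold lower than on day 1 and the interval of Mmp9 held 1.

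The leukocyte enzymes were then set against reads of marker genes in the same library. The summed level of the neutrophil markers was 2694, 735 and 645 CPM in adhesion tissues on days 1, 3 and 7 and 29.8, 126 and 107 CPM in heart tissues on days 0, 3 and 7, from 11 of 12 listed genes. Elane was at 0 in 5 of the 6 libraries. Mmp8 gave 25.7, 31.1 and 26.9 reads per 1000 neutrophil marker reads in adhesion tissues, with overlapping intervals between 18.3 and 43.2, and 39.2, 30.7 and 10.3 in heart tissues, from 2, 7 and 2 reads. Mmp9 gave 139, 290 and 618 reads per 1000 neutrophil marker reads in adhesion tissues. In heart tissues Mmp9 gave 58.8, 276 and 418 on days 0, 3 and 7. Mmp9 per neutrophil marker read was thus higher on each later day in both tissues, although the heart intervals of days 3 (206 to 367) and 7 (318 to 544) overlapped, while Mmp8 per marker read in adhesion tissues was not separable between days. The part of neutrophil number in these levels was not tested.

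Macrophage markers summed to 2716, 6942 and 6908 CPM in adhesion tissues on days 1, 3 and 7 and 430, 1345 and 1654 CPM in heart tissues on days 0, 3 and 7, with all 11 genes detected in every library. Mmp12 gave 4.73, 82.5 and 180 reads per 1000 macrophage marker reads in adhesion tissues. On the heart side it gave 5.43, 28.7 and 107. In adhesion tissues Mmp12 was 2.21-fold higher on day 7 than on day 3 (2.05 to 2.39). The marker sum was nearly level between these days, but 9 of its 11 genes were lower in CPM on day 7 than on day 3, and Lyz2 and Cd68 were higher. Mrc1 was at 377 CPM on day 7 against 718 CPM on day 3, and Cd163 was 4.47-fold lower (3.36 to 6.04). Without Lyz2, a choice made after seeing the data, the sum was 2762 CPM on day 7 and 3671 CPM on day 3, and Mmp12 gave 7.46, 156 and 451 reads per 1000 of the remaining marker reads on days 1, 3 and 7. The part of macrophage number was not tested.

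**Figure D2:**
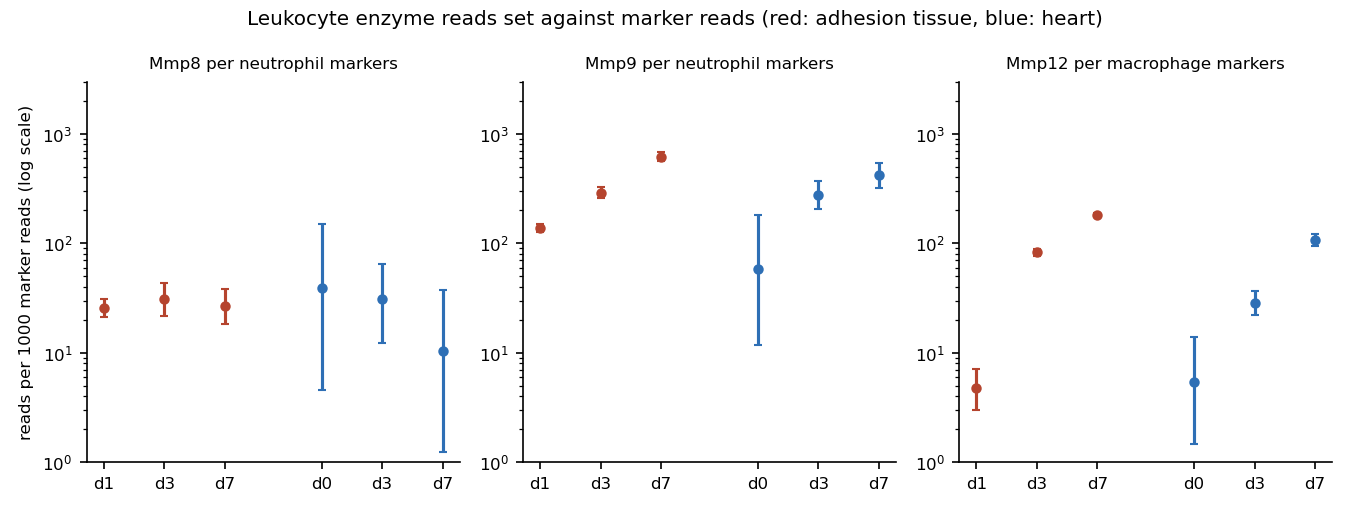
Reads of Mmp8 and Mmp9 per 1000 neutrophil marker reads and of Mmp12 per 1000 macrophage marker reads, on a log axis, in adhesion libraries (red, days 1, 3 and 7) and heart libraries (blue, days 0, 3 and 7), with exact 95% counting intervals. Mmp9 is higher on each later day in both tissues, up to 618 in adhesion and 418 in heart tissue, although its heart intervals of days 3 and 7 overlap. Mmp8 in adhesion tissues stays between 25.7 and 31.1.

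Set against fibroblast marker reads in adhesion tissues, Mmp2, Mmp14 and Mmp13 gave different directions with and without the collagen genes, while Mmp19 and Mmp3 did not. The 10 markers summed to 2582, 28774 and 45659 CPM in adhesion tissues on days 1, 3 and 7, and Col1a1, Col1a2 and Col3a1 made up 70.6%, 96.1% and 94.6% of their reads. Per 1000 reads of all 10 markers, Mmp2 gave 19.7, 4.39 and 9.20 reads, Mmp14 gave 44.8, 10.7 and 11.6, and Mmp19 gave 130, 11.1 and 10.4. Per 1000 reads of the other 7 markers, a sum chosen after seeing the data, Mmp2 gave 66.9, 112 and 171 reads and Mmp14 gave 152, 273 and 215. Both were thus lower on the later days than on day 1 by the first sum and higher by the second. Mmp19, at 441, 283 and 192 by the second, was lower on the later days by both, and so was Mmp3. By the first sum Mmp3 gave 9.95, 0.301 and 0.689, and by the second 33.8, 7.69 and 12.8. Mmp13, from 5, 45 and 18 reads, gave 1.08, 0.968 and 0.214 by the first and 3.67, 24.7 and 3.96 by the second. In heart tissues the 10 markers summed to 1692, 11983 and 12759 CPM on days 0, 3 and 7. Per 1000 of their reads Mmp14 gave 7.59, 8.34 and 8.19 and Mmp2 gave 52.5, 11.1 and 15.1. Per 1000 reads of the 7 markers Mmp14 gave 17.4, 73.0 and 69.0 and Mmp2 gave 120, 96.8 and 127. Col1a1 itself was over 3-fold higher on both later days in both tissues, and the part of fibroblast number was not tested.

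The inhibitors differed from each other. Timp1, a secreted inhibitor induced by cytokines in many cell types, had 564, 472 and 361 reads in adhesion tissues on days 1, 3 and 7 (315, 292 and 196 CPM). In heart tissues it had 3, 129 and 37 reads on days 0, 3 and 7 (1.75, 71.3 and 20.4 CPM). Its heart level was highest on day 3, and per length it was the highest member in adhesion tissues on days 1 and 3. In adhesion tissues the level was 1.07-fold lower on day 3 than on day 1 (0.946 to 1.21) and 1.57-fold lower on day 7 than on day 1 (1.38 to 1.80). Its heart level was 36.0-fold higher on day 3 than on day 0 (12.1 to 177), ranking 11 among 9845 genes, and 10.7-fold higher on day 7 than on day 0 (3.38 to 54.2). The heart level of Timp1 on day 7 was 3.37-fold lower than on day 3 (2.32 to 5.0).

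Timp2, a broadly made inhibitor that also binds proMmp2, had 151, 441 and 867 reads in adhesion tissues on days 1, 3 and 7 (84.4, 273 and 470 CPM). On the heart side it had 195, 288 and 462 reads on days 0, 3 and 7 (114, 159 and 254 CPM). Timp2 was thus well measured in the day 0 heart, where Timp1 was at the floor. It was 3.26-fold higher on day 3 (2.70 to 3.95) and 5.71-fold higher on day 7 (4.80 to 6.83) than on day 1 in adhesion tissues. Its heart level was 1.24-fold higher on day 3 (1.03 to 1.49) and 2.05-fold higher on day 7 (1.73 to 2.44) than on day 0.

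In the adhesion tissues 3 of 10 were over 3-fold higher on day 3 than on day 1 (Mmp13, Mmp12 and Timp2), where 3.78% of the 16946 genes with a read were, and none was over 3-fold lower, where 6.7% of genes were. On day 7, 5 were higher than on day 1 (Mmp2, Mmp13, Mmp14, Mmp12 and Timp2), against 5.13% of genes, and 1 was lower (Mmp8), against 4.88%. The number higher was 4 in CPM, with TMM or DESeq2 scaling and with a pseudocount of 5. Of the 5, Mmp13 lay closest to the threshold, with 18 against 5 reads and a log2 ratio of 1.63 with the pseudocount. In heart tissues 7 were over 3-fold higher than day 0 on day 3, against 6.66% of genes, and the same number on day 7, against 6.84%, with Mmp13 counted at 3 reads or fewer. That number was 6 on both days in CPM, with TMM or DESeq2 scaling and with a filter of 10 reads. No member was over 3-fold lower in heart tissues on day 3, where 1.77% of genes were, or on day 7, where 1.52% were. The 7 heart members were 4 stromal enzymes (Mmp3, Mmp13, Mmp14 and Mmp19), 2 leukocyte enzymes (Mmp9 and Mmp12) and Timp1. The median log2 ratio over the 10 members was 0.63 and 1.08 on days 3 and 7 in adhesion tissues and 2.76 and 2.46 in heart tissues, against medians of all genes between -0.10 and 0. With a heart muscle share of the adhesion libraries taken out, a correction chosen after seeing the data, 4 members were over 3-fold higher on day 3 than on day 1, Mmp2 being added at a log2 ratio of 1.91. That addition rested on Ttn, since with the share set by the other 9 cardiomyocyte genes the number was 3 and the log2 ratio of Mmp2 was 1.54. Both later days of a tissue were divided by the same first library, so these ratios are not independent.

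**Figure D3:**
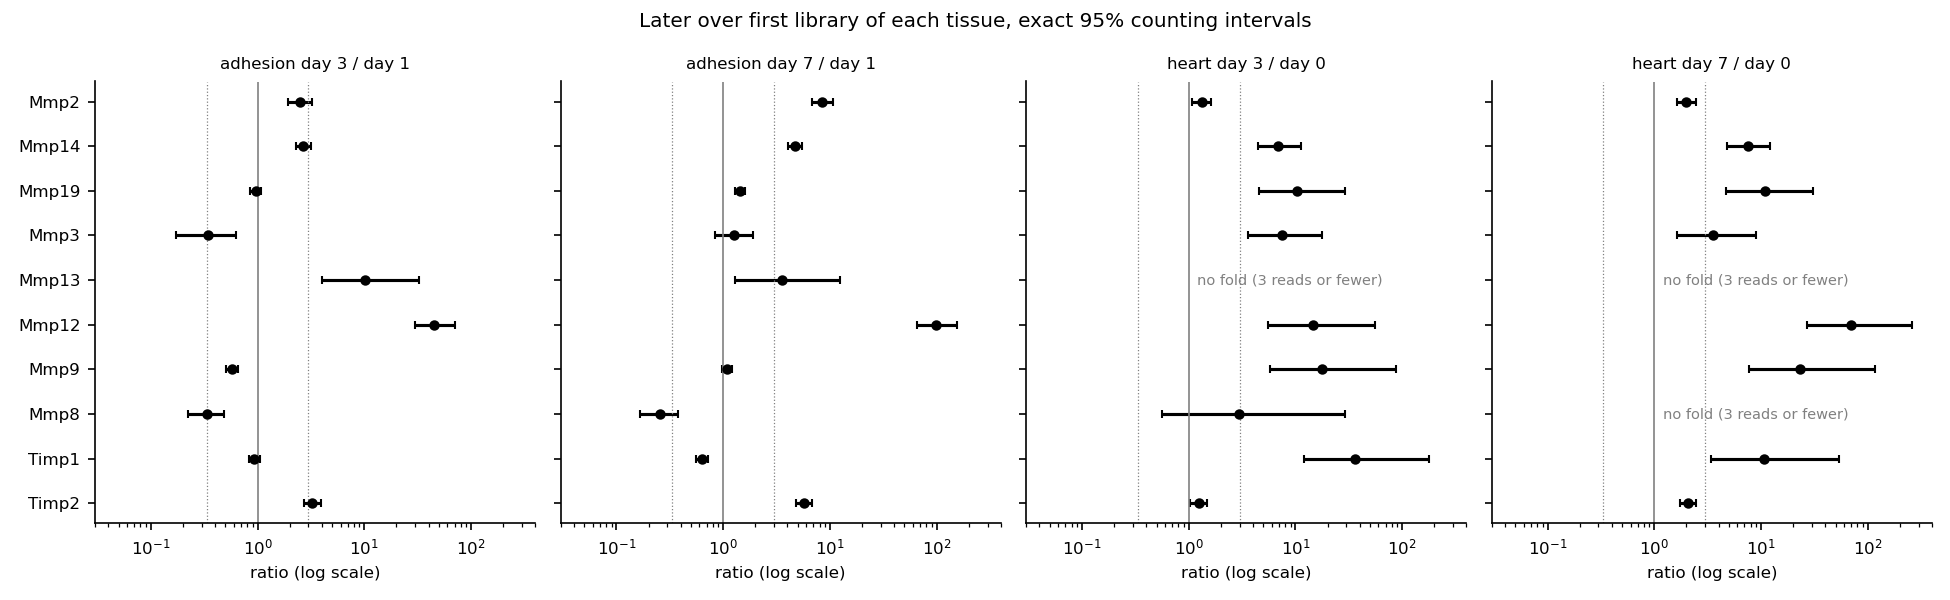
Ratio of the later over the first library for each member on a log axis, for adhesion tissue on days 3 and 7 over day 1 and heart tissue on days 3 and 7 over day 0, with exact 95% counting intervals, a solid line at 1 and dotted lines at 3-fold. In heart tissues Timp1 reaches 36.0 on day 3, and Mmp12 reaches 70.0 on day 7. In adhesion tissues Mmp12 reaches 44.9 and 99.3, and Mmp8 lies below 1 on both days.

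The order of the members by level per length differed between tissues. In adhesion tissue on day 1 it was led by Timp1 (354 RPKM), Mmp9 (119), Mmp19 (97.1) and Mmp14 (44.5). On day 3 it was led by Timp1 (328 RPKM), Mmp12 (159), Mmp14 (118) and Mmp19 (92.3), and on day 7 by Mmp12 (345 RPKM), Timp1 (220), Mmp14 (204) and Mmp2 (138). In the heart tissues on day 0 it was led by Timp2 (31.4 RPKM) and Mmp2 (29.2), on day 3 by Timp1 (80.1), and on day 7 by Timp2 (70.2) and Mmp2 (63.5). Mmp2 carried 74.0% of the summed RPKM of the 8 enzymes in the day 0 heart, 31.3% on day 3 and 33.4% on day 7. In adhesion tissue Mmp9 carried 36.7% of it on day 1 and Mmp12 carried 31.5% and 35.3% on days 3 and 7. These shares leave out the 15 other Mmp genes. In the day 0 heart those genes summed to 56.1 RPKM, above the 39.4 RPKM of the 8 enzymes, and Mmp15 held 311 of their 361 reads.

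The balance of enzymes to inhibitors, taken within a library as the summed reads per kilobase of the 8 enzymes over those of Timp1 and Timp2, was 0.860, 1.25 and 2.80 in adhesion tissues on days 1, 3 and 7. In heart tissues it was 1.18, 1.13 and 2.05 on days 0, 3 and 7. Without Mmp12 it was 0.851, 0.854 and 1.81 in adhesion tissues, so the adhesion day 3 value rested on Mmp12. With Timp3 and Timp4 added to the inhibitors it was 0.265, 0.793 and 1.01 in heart tissues, in which Timp3 was abundant, so that day 3 was then higher than day 0. That setting added inhibitors only. The other Mmp genes, at 56.1, 46.7 and 53.8 RPKM in heart tissues on days 0, 3 and 7, were not added to the enzymes. For enzyme and inhibitor pairs, Mmp12 per Timp1 was 0.0101, 0.484 and 1.57 in adhesion tissues, while Mmp14 per Timp2 was 1.91, 1.57 and 1.57. In heart tissues Mmp14 per Timp2 was 0.157, 0.877 and 0.574 on days 0, 3 and 7.

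**Figure D4:**
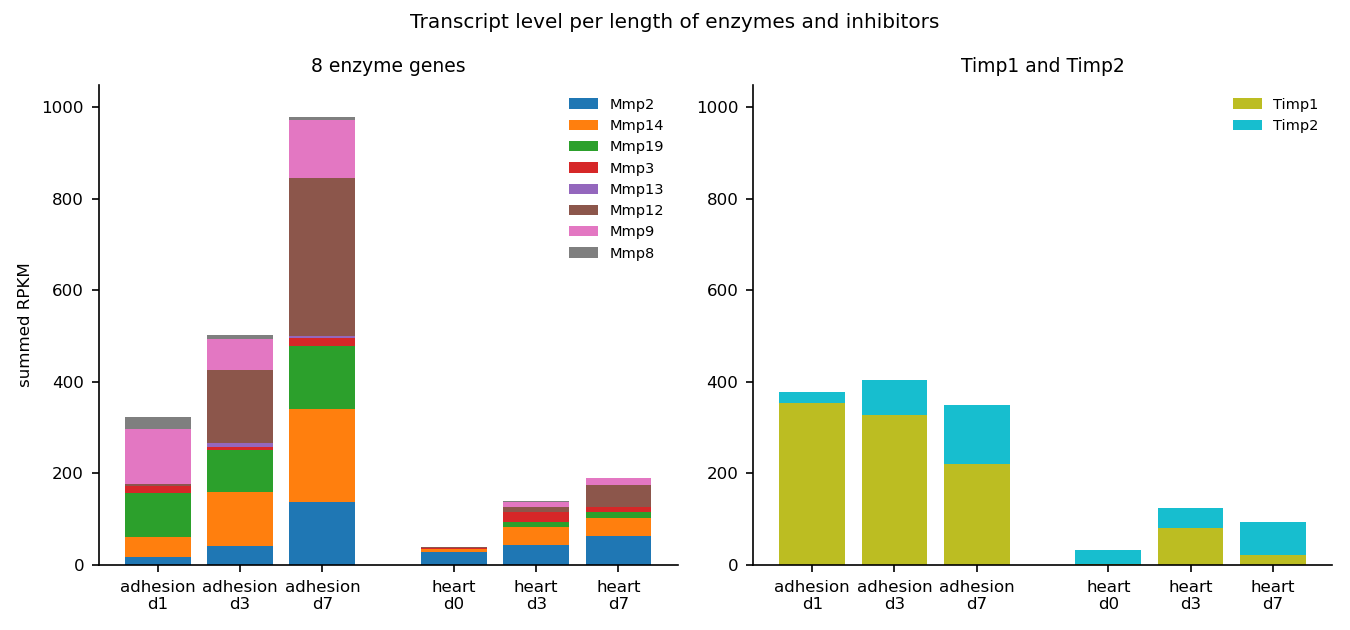
Summed level per length (RPKM) of the 8 enzyme genes (left) and of Timp1 and Timp2 (right) in each library, with adhesion tissues on days 1, 3 and 7 before heart tissues on days 0, 3 and 7. The enzymes sum to 324, 504 and 979 RPKM in adhesion tissues and 39.4, 139 and 190 RPKM in heart tissues, with Mmp12 the largest share in the adhesion tissue of day 7.

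Set against heart tissue of the same day in CPM, 7 of 10 members were over 3-fold higher in adhesion tissue on day 3, where 10.2% of genes were, and 7 on day 7, where 9.33% of genes were. Mmp3 was the member over 3-fold lower on day 3, where 9.3% of genes were, and none was on day 7, where 6.86% were. The median log2 ratio over the members was 2.16 on day 3 and 2.57 on day 7, against 0.22 and 0.29 over all genes. On both days the 7 were Mmp13, Mmp14, Mmp19, Mmp8, Mmp9, Mmp12 and Timp1. Mmp12 in adhesion tissue exceeded its heart level by 14.8-fold on day 3 (11.6 to 19.2) and by 7.01-fold on day 7 (6.24 to 7.90). Mmp19 exceeded it by 7.80-fold on day 3 (6.10 to 10.1) and by 11.5-fold on day 7 (9.07 to 14.7). Mmp9 exceeded it by 6.14-fold (4.68 to 8.16) and 8.94-fold (7.10 to 11.4) on days 3 and 7. Timp1 exceeded it by 4.10-fold (3.37 to 5.02) and 9.62-fold (6.85 to 13.9). Mmp14 exceeded it by 3.08-fold on day 3 (2.59 to 3.67), which was under 3-fold with TMM and DESeq2 scaling (log2 ratios 1.36 and 1.42), and by 5.06-fold on day 7 (4.33 to 5.94). Mmp13 and Mmp8 rested on 2 to 7 heart reads, with ratios of 25.2 (6.59 to 215) and 5.92 (2.61 to 15.7) on day 3 and of 5.91 (1.73 to 31.3) and 15.8 (4.02 to 136) on day 7. Timp2, Mmp2 and, on day 7, Mmp3 stayed within 3-fold. Timp2 was 1.72-fold higher on day 3 (1.48 to 2.0) and 1.85-fold higher on day 7 (1.65 to 2.08), and Mmp2 was at 0.952 (0.786 to 1.15) on day 3 and 2.18-fold higher (1.92 to 2.48) on day 7. Mmp3 was 4.53-fold lower in adhesion tissue than in heart tissue on day 3 (2.53 to 8.70) and 1.73-fold higher on day 7 (1.11 to 2.74).

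**Figure D5:**
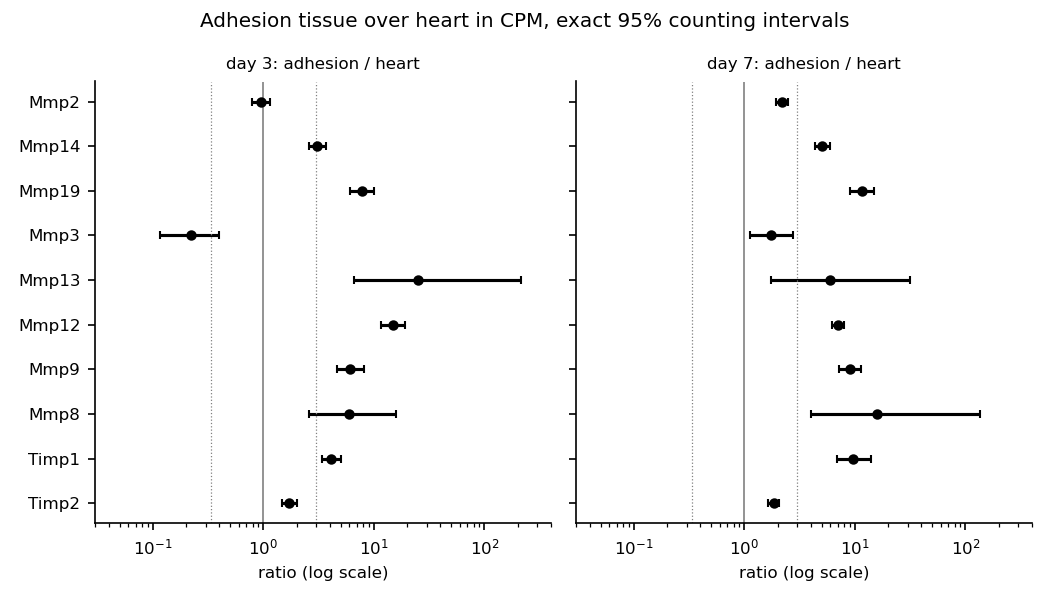
Ratio of adhesion over heart tissue in CPM for each member on a log axis, on day 3 (left) and day 7 (right), with exact 95% counting intervals, a solid line at 1 and dotted lines at 3-fold. On day 3 the points of Mmp3, at 4.53-fold lower, and Mmp2, at 0.952 with an interval that holds 1, lie below 1.

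Genes related to the members by family or role were described by counts. Of 15 other Mmp genes, Mmp15, Mmp23 and Mmp25 had at least 20 reads in some library. Mmp25, a membrane-anchored enzyme of neutrophils, had 70, 18 and 17 reads in adhesion tissues and 0, 1 and 6 reads in heart tissues, so that it was highest on day 1 as Mmp8 was. Mmp15, a membrane-type enzyme, was higher in heart, with 33, 20 and 55 reads in adhesion tissues and 311, 224 and 229 reads in heart tissues. For Mmp23 there were 16, 61 and 96 reads in adhesion tissues and 14, 24 and 38 reads in heart tissues. Timp3, a matrix-bound inhibitor, had 286, 167 and 398 reads in adhesion tissues and 708, 364 and 712 reads in heart tissues. Timp4 had 11, 1 and 3 reads in adhesion tissues and 65, 23 and 31 reads in heart tissues. The lists that follow are to be read against the shares of all genes over 3-fold higher and lower, 3.78% and 6.7% in adhesion tissue on day 3, 5.13% and 4.88% on day 7, and 6.66% and 1.77%, then 6.84% and 1.52%, in heart tissue on days 3 and 7. Of 16 listed activators and controls of these enzymes, 1 was over 3-fold higher in adhesion tissue on day 3 than on day 1, Plau (urokinase), with 149 reads against 39 reads. Lcn2, which binds Mmp9, was over 3-fold lower, with 222 reads against 2874 reads, and 1 of 16 in each direction is close to the shares of all genes. On day 7, Plau, Serpine2 and Itgb3 were over 3-fold higher and Lcn2 was over 3-fold lower than on day 1. In the heart Plaur, the urokinase receptor, and Cd44 were over 3-fold higher on day 3 than on day 0, and Plaur was on day 7, with none lower on either day. Of 12 substrate genes, 4 were over 3-fold higher on day 3 than on day 1 in adhesion tissues and 6 were over 3-fold higher in the heart on day 3 than on day 0, among them Col1a1, Col1a2, Col3a1 and Col5a1 in each case. On day 7, 5 substrate genes were higher and 1 lower in adhesion tissue than on day 1, and 5 were higher in the heart than on day 0. Of 16 transcription factor genes listed for Mmp promoters, Fos was over 3-fold higher in adhesion tissue on day 3 than on day 1, with 308 reads against 105 reads, and 1 was over 3-fold lower, Fosl1, which stayed under 20 reads and is named after its values were seen. On day 7, 2 were higher and 1 lower than on day 1. In the heart Junb and Spi1 (named Sfpi1 in the table) were over 3-fold higher on day 3 than on day 0, and Spi1 was on day 7, with 1 lower.

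Among all 10267 genes with at least 100 reads over the 6 libraries, those whose centered log2 profile was closest to a member were found by root mean square difference over the 6 libraries. For Timp2 they were Tmem86a, Mxra8 and Tmem106c, at 0.06, 0.13 and 0.17. For Mmp2 the closest was Ssc5d at 0.18, for Mmp14 Lyz1 at 0.25, for Mmp9 Clec4d at 0.30, for Mmp19 Slc15a3 at 0.24 and for Timp1 Gpr35 at 0.44. The 3 closest to Mmp14 included Lyz2, a gene of the macrophage marker list, at 0.28. Those of Mmp19 included Adam8 and Lilrb4, at 0.24 and 0.25. The stromal and leukocyte groups were given by name, and the cells that made each enzyme were not tested. For Mmp12 the closest, Gpnmb, lay at 0.59, a larger distance than for any other member. For Mmp3, Mmp13 and Mmp8 the closest genes were Uggt2 at 0.38, Ticam2 at 0.30 and Tfec at 0.32. Between members the closest pairs were Mmp19 with Mmp9 and Mmp2 with Timp2, both at 0.32, and the farthest was Mmp8 with Mmp12 at 3.11. Points of such a profile share their libraries, and the distance is a description of 6 libraries.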

How the data were processed

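Total RNA of mouse adhesion and heart tissues was sequenced on a MiSeq after rRNA depletion, with a directional kit and 1 library per tissue and day. The authors deposited 1 table per tissue, with signal values per gene, each a read count times 1 factor per library, scaled within a tissue. The submitters' processing notes name TopHat, Cufflinks, edgeR and the mm10 genome; for versions, counting tool and strand setting: not given in the sources used here. The deposited length, another column, was used for RPKM. The deposited score and q-value columns hold the authors' own statistics over 3 libraries and were not used.

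Values were divided by the value of 1 read (0.882 to 0.991 in adhesion and 1.027 to 1.225 in heart tissues); 100% came out whole within 0.1 read. Ratios within a tissue were taken on the deposited scale, and between tissues in CPM, since the tables were scaled separately. Calls used a pseudocount of 1 and a 3-fold threshold over genes with a read in either library. No test across replicates was possible. Alternatives were pseudocounts of 0.5 and 5, a filter of 10 reads, a 2-fold threshold, the interval bound and CPM. Others were totals without 25 genes (muscle and erythroid genes, Rn45s and Lars2), edgeR 4.0.16 TMM and DESeq2 1.42.0 size factors. A subtraction of heart muscle RNA, and marker sums without their most abundant genes, were added after seeing the data. The members and lists were chosen with earlier results of these data known. All 10 members are named, and from the lists genes with at least 20 reads in a library. Of 149 list entries 2 were not matched, and 3 were matched by an older symbol. The result of 1 list gene is not reported here. The procedure was tested on simulated reads with counting error only, for the comparisons within a tissue. That test cannot speak to differences between animals or libraries, which it did not hold. Promoters are from RefSeq (GRCm38.p6), with 7 of 10 members matched. Analyses used Python 3.11.15, numpy 2.4.6, pandas 2.3.3, scipy 1.17.1 and R 4.3.3.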

Additional observations from a re-analysis of the deposited data

Results flagged for a closer look

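Mmp3 moved in opposite directions between days 3 and 7 in the tissues. Its level on day 7 was 3.69-fold that of day 3 in adhesion tissues, from 58 against 14 reads (2.03 to 7.16). In heart tissues the day 7 level was 2.08-fold lower than that of day 3, from 33 against 71 reads (1.36 to 3.25). Each tissue and day is 1 library, and the difference between the tissues was not tested.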

How the results depend on the processing

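Of 292 single ratios of member levels recomputed under other settings, 14 moved beyond the counting interval and none changed sign. Of 138 alternative values of the main numbers 16 moved, while changes such as from 5 to 4 or from 7 to 5 members were not taken as moved. With a 2-fold threshold, 5 members were higher and 2 lower in adhesion tissue on day 3 relative to day 1. Requiring the interval bound to pass 3-fold, 2 and 4 members were higher in adhesion tissue on days 3 and 7 relative to day 1. In the heart 6 and 5 were higher on days 3 and 7 relative to day 0. Set against heart tissue, 5 were higher in adhesion tissue on day 3 and 6 on day 7. By the same rule 0 members were lower in adhesion tissue on day 7 relative to day 1, and 0 were lower than heart tissue on day 3. The enzyme to inhibitor ratio without Mmp12 was 0.854 on day 3 and 1.81 on day 7 in adhesion tissues and 1.52 in the day 7 heart. With Timp3 and Timp4 added, but no further Mmp genes, it was 0.780 and 2.47 in adhesion tissues on days 1 and 7. In heart tissues it was then 0.265, 0.793 and 1.01 on days 0, 3 and 7. In reads not divided by length it was 2.47, 2.83 and 4.69 in adhesion tissues on days 1, 3 and 7 and 0.995 and 1.70 in the heart on days 0 and 3. The heart value was thus higher on day 3 than on day 0 with Timp3 and Timp4 added and in reads, and lower as the report defines it, and several values crossed 1. With TMM scaling the log2 ratios of adhesion over heart tissue were 0.26 lower on both days. Subtracting 19.2%, 0.352% and 8.43% of the day 0 heart profile from the adhesion libraries of days 1, 3 and 7, as their 10 cardiomyocyte genes give it, left 4 and 5 members over 3-fold higher on days 3 and 7 relative to day 1, and Mmp2 reached a log2 ratio of 1.91 on day 3. Without Ttn the shares were 8.23%, 0.314% and 4.90%, the numbers 3 and 5 and the ratio 1.54. Without Col1a1, Col1a2 and Col3a1 in the fibroblast sum, some log2 ratios per marker read that were negative became positive. In adhesion tissue on days 3 and 7 over day 1 Mmp2 was then at 0.75 and 1.35, Mmp14 at 0.84 and 0.50 and Mmp13 at 2.75 and 0.11. In the heart on day 7 over day 0 Mmp2 was at 0.087 and Mmp3 at 0.92. Mmp3 and Mmp19 in adhesion tissue stayed negative on both later days. Without S100a8 and S100a9 in the neutrophil sum, the log2 ratio per marker read of Mmp8 in adhesion tissue on day 7 over day 1 was -0.13, against 0.06 with them. No paired analysis was possible because each group holds 1 library, and for the same reason no replicate could be left out. Values of 3 reads or fewer, as for Mmp8, Mmp9, Mmp13 and Timp1 in the day 0 heart, limit the heart ratios.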
